A study of Mus musculus with 18 samples.

Results

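The genes described here encode voltage-gated calcium channels, HCN channels, TRP channels and sodium channels of the voltage-gated family, measured by RNA-seq in the arcuate nucleus of the mouse hypothalamus. They were chosen by symbol (Cacna, Cacnb and Cacng genes, numbered Hcn, Trpa, Trpc, Trpm, Trpv and Scn genes) and by a mean of 0.5 FPKM or more over the 18 libraries, where FPKM is a fragment count scaled by transcript length and library size. Of 67 symbols with such a name, 51 met the limit, out of 14774 symbols tested and 23235 in the tables, and 47 of the 51 are described here. One of the 47, Trpc4ap, takes its name from an association with TRPC4 and encodes no channel, so 46 are channel subunits. Just above the limit stood Cacna2d4 (0.67 FPKM) and Cacna1s (0.56 FPKM), and just below it Trpv6 and Scn4b (both 0.40 FPKM). The other 14 symbols below it were Scn11a, Trpa1, Cacng1, Trpm1, Trpm6, Cacng6, Cacna1f, Trpv3, Trpm5, Trpv1, Scn4a, Scn10a, Trpm8 and Trpv5.

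All mice were ovariectomized females labelled as C57/BL. The groups were wild type (WT), KIKO and ERKO, each given oil or estradiol benzoate (E2), with 3 libraries a group and 18 in all. E2 was given as 250 ng 5 days after surgery and 1500 ng the next day (day 6), the oil groups had oil both times, and tissue was taken 24 h after the last dose, with a 1 h fast before. ERKO mice lack ERα, the product of Esr1. KIKO, as the name is generally used, denotes a knocked-in allele of an ERα that does not bind estrogen response elements, beside a null allele. KIKO and WT therefore need not differ in that binding alone. The labels do not describe how the alleles were made, nor whether a library holds the tissue of a single mouse. The p-values thus measure the spread between libraries. The tissue was a microdissected region of many cell types, in which fewer cells of a type and less RNA per cell cannot be told apart. The series title poses the question of which E2 responses need that binding, and here it was asked of the channel genes.

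Calcium channels open when the membrane depolarizes. A pore-forming α1 subunit sets the type, with T-type channels opening near rest and supporting burst firing, L-type channels carrying slow and long-lasting entry, and P/Q-, N- and R-type channels triggering release at terminals, while β and α2δ subunits bring the pore to the membrane. HCN channels open on hyperpolarization and carry a pacemaker current, and TRPC channels are nonselective cation channels opened downstream of phospholipase C. Most sodium channels of the family generate the action potential. Arcuate kisspeptin and POMC neurons use T-type, HCN and TRPC currents to fire, and these cells are known targets of E2.

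Esr1, the gene targeted in the mutants, was at 5.38 to 11.9 FPKM in WT oil, 3.45 to 5.88 in WT E2, 2.91 to 4.08 in KIKO oil and 2.85 to 3.89 in KIKO E2. It was at 1.62 to 2.39 FPKM in ERKO oil and 0.21 to 2.34 in ERKO E2, lower than in WT but above 0, and which exons gave these fragments was not analysed here. The 6 arcuate nucleus markers, Kiss1, Tac2, Pomc, Agrp, Npy and Ghrh, were above 0 in every library.

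One library stood apart from the rest and touches many of the values below. Replicate 3 of ERKO E2 (ERKO E2 3) correlated with the others at 0.919 to 0.954 on log2(FPKM + 1), against 0.963 to 0.995 among the other 17, and its FPKM summed to 628541, against 418191 to 492135. Of the 47 genes, 29 (61.7%) had their lowest value there, as did 29.7% of all genes tested. Cacna1e stood at 1.70 FPKM in that library and at 9.43 or more in the other 17, Trpm3 at 1.61 against at least 10.3, and Hcn4 at 0.35 against at least 2.32. Trpc5 was at 0.24 FPKM against at least 1.16. Cacng3 was highest there, at 13.3 FPKM against at most 10.5. Low values in this library thus occurred in several families at once, and the results that use ERKO E2 libraries are given with and without it. Because all 18 libraries share 1 estimate of the spread, the library also bears on comparisons that do not contain it.

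Other features of ERKO E2 3 moved with these values. Avp and Oxt, hormone genes of magnocellular neurons, were at 13107 and 7392 FPKM there, against at most 4581 and 2714 in the other 17 libraries, and Ttr, a marker of choroid plexus, at 36.1 against at most 19.5 FPKM. Its deviation from the median library had a Spearman correlation of -0.68 with transcript length over 12826 genes, and of -0.42 over the 47. It was also the shallowest library, at a relative depth of 0.759 (1 is the median library), with the other 17 between 0.811 and 1.57. Trpc5 rested there on 12 fragments implied by the authors' confidence bounds and Hcn4 on 16. The part of these features in the low values was not tested.

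**Figure D1:**
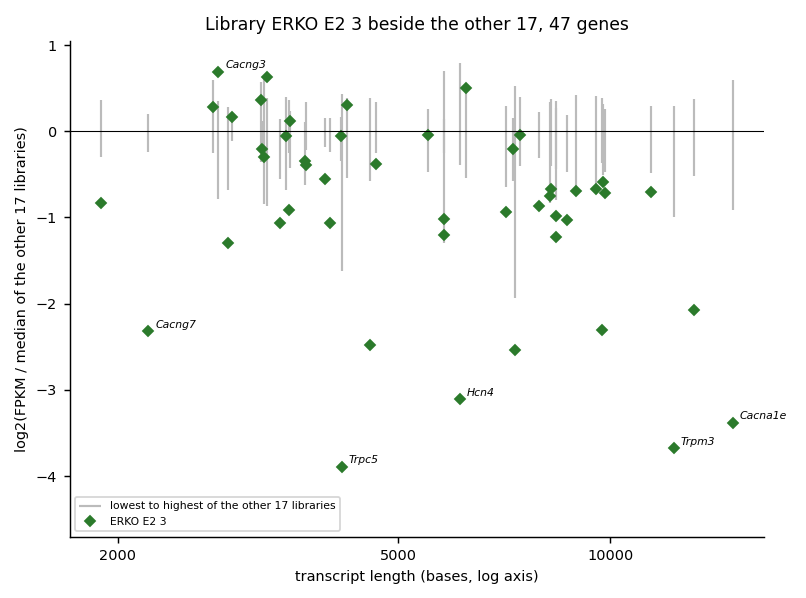
Each diamond is 1 of the 47 genes in ERKO E2 3, as log2 of its FPKM over the median of the other 17 libraries, against transcript length in bases on a log axis, and each grey line spans the other 17 libraries. Cacna1e (1.70 FPKM), Trpm3 (1.61), Trpc5 (0.24), Hcn4 (0.35) and Cacng7 (11.4) lie far below the lines, and Cacng3 (13.3) lies above its line.

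All 47 genes had values above 0 in all 18 libraries, and 42 stood at 1 FPKM or more in each of them. Their mean levels had a median of 15.3 FPKM, against 11.6 FPKM over all genes tested. Auxiliary subunits were the most abundant of the channel genes. Cacng7, a TARP-related γ subunit, averaged 54.5 FPKM, Cacnb3, a calcium channel β subunit, 52.2 FPKM, and Scn2b, a sodium channel β subunit, 38.7 FPKM. Summed within a library, the 2 sodium channel β genes described, Scn2b and Scn3b, averaged 67.2 FPKM over the 18 libraries, whereas the 6 sodium channel pore (α) genes described averaged 93.1 FPKM together. The 6 include Scn7a (19.5 FPKM), an atypical member of the family that is not a classical voltage-gated pore. The order within those pore genes ran from Scn2a1 (24.0 FPKM), a main neuronal pore, to Scn1a (8.72 FPKM), known as a pore of inhibitory interneurons.

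Among calcium channel pores, the 3 P/Q-, N- and R-type genes summed to 56.2 FPKM, with Cacna1a (P/Q) at 20.5 FPKM and Cacna1e (R) at 17.8 FPKM. The 3 T-type genes summed to 41.6 FPKM and ran from Cacna1g at 19.6 through Cacna1h at 15.0 to Cacna1i at 7.09 FPKM. The L-type genes summed to 17.7 FPKM, led by Cacna1d at 10.9 FPKM, with Cacna1c at 6.22 FPKM and the skeletal muscle pore Cacna1s at 0.56 FPKM. The β genes summed to 113 FPKM and ended at Cacnb4 (11.8 FPKM), the α2δ genes to 85.4 FPKM from Cacna2d2 (35.5 FPKM) to Cacna2d4, and the γ and TARP genes to 145 FPKM, ending at Cacng3 (8.34 FPKM). TARPs are named for trafficking AMPA receptors, and several Cacng genes encode them.

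Hcn2 led the HCN genes at 29.4 FPKM, with Hcn3 at 18.8 and Hcn4 at 2.98 FPKM. The 6 TRPC genes described were lower and close together, from Trpc1 at 5.70 FPKM to Trpc5 at 3.21 FPKM. The TRPC4 and TRPC5 pores, which couple to Gq-linked receptors, averaged 4.82 and 3.21 FPKM over the 18 libraries. Trpm3 (17.9 FPKM) led the TRPM genes, with Trpm4 (3.36 FPKM) lowest, and Trpv2 (15.3 FPKM) exceeded Trpv4 (1.38 FPKM). Neighbours in these orders often overlapped across libraries, for example Trpc4 and Trpc7 at 4.82 and 4.79 FPKM. Without ERKO E2 3, Hcn3 varied least of the 46 channel genes (coefficient of variation 6.17%), and Trpv4 varied most (31.9%).

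**Figure D2:**
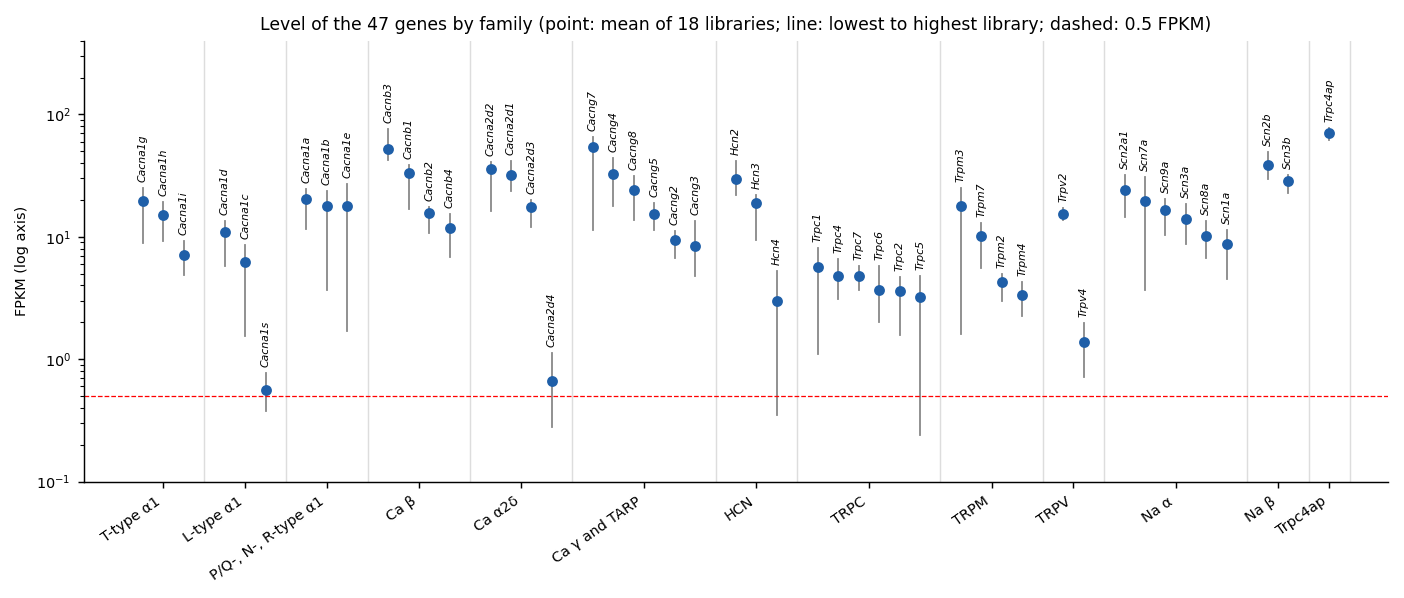
Mean FPKM over 18 libraries (points, log axis) of the 47 genes by family, with lines from the lowest to the highest library. Auxiliary subunits such as Cacng7 (54.5 FPKM) stand above most pore genes, the TRPC genes lie between 3.21 and 5.70 FPKM, and the long downward lines of Trpc5, Hcn4, Cacna1e and Trpm3 end at ERKO E2 3.

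In WT mice E2 changed 0 of the 47 genes by limma in the fit of all libraries. Of the 47, 3 had an unadjusted p under 0.05, against 10.3% of all genes tested, and 0.785% of all genes passed the threshold. The 3 with the smallest p were Hcn2 and Trpc6, whose E2 means were lower, and Scn3b, whose E2 mean was higher. Changes are on the log2(FPKM + 1) scale, on which the added 1 shrinks the change of a weakly expressed gene.

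Trpc6 and Trpc7 encode diacylglycerol-gated cation channels. Trpc6 was at 3.88, 3.74 and 4.82 FPKM with oil and at 2.03, 2.52 and 3.60 with E2 (log2 change -0.49 ± 0.20, SE, limma adjusted p = 0.389), with no overlap. Trpc7 was at 4.94, 4.03 and 4.99 FPKM with oil and at 5.13, 5.80 and 5.38 with E2 (log2 change 0.19 ± 0.12, adjusted p = 0.669), again with no overlap. So the E2 values of Trpc6 lay below the oil values and those of Trpc7 above them, neither past the threshold. Trpc4 and Trpc5 had log2 changes of -0.23 ± 0.17 and 0.15 ± 0.43.

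Hcn2, a slowly opening and cAMP-sensitive HCN pore, had 42.0, 39.6 and 26.4 FPKM in WT oil and 25.5, 28.2 and 22.0 in WT E2 (log2 change -0.47 ± 0.15, limma adjusted p = 0.215). Its lowest oil value fell among the E2 values. Without the library of that value, WT oil 3, Hcn2 passed at -0.68 ± 0.13 (adjusted p = 0.0183). Taking out the lowest oil value must widen the difference, so no conclusion is drawn from this.

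Of the T-type genes, Cacna1g (Cav3.1) stood at 18.6, 13.3 and 16.4 FPKM in WT oil and at 22.0, 23.7 and 22.4 FPKM in WT E2, with no overlap (log2 change 0.48 ± 0.28, limma adjusted p = 0.617). The authors' tables mark the first and second of the oil values as failed estimates. Cacna1h (Cav3.2) and Cacna1i (Cav3.3) had log2 changes of -0.12 ± 0.18 and -0.22 ± 0.16. The L-type pores Cacna1c and Cacna1d had changes of 0.08 ± 0.35 and -0.02 ± 0.20. Cacna1d was at 9.65, 8.87 and 8.43 FPKM with oil and at 8.77, 8.93 and 8.88 with E2.

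Among auxiliary subunits, Scn3b, a sodium channel β subunit, was at 26.7, 25.5 and 22.7 FPKM with oil and at 28.8, 30.6 and 30.8 with E2 (0.26 ± 0.09, limma adjusted p = 0.267), without overlap. Cacnb1, the calcium channel β1 subunit, was at 38.5, 34.5 and 37.5 FPKM with oil and at 26.2, 31.9 and 23.9 with E2. Its E2 values all lay below its oil values, and the change of -0.43 ± 0.22 did not pass (adjusted p = 0.544). With ERKO E2 3 out of the fit the same change passed (-0.43 ± 0.09, adjusted p = 0.0190), as the 1 gene of the 47 to do so, against 2.69% of all genes tested. WT oil and WT E2 values did not overlap for 7 of the 47 genes, a share of 14.9% against 15.8% of all genes tested. These were Scn3b, Scn2a1, Cacna1g, Cacnb2 and Trpc7, higher with E2, and Cacnb1 and Trpc6, lower with E2.

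Markers of other cells also differed between the WT groups. The summed FPKM of 7 oligodendrocyte markers ran from 1447 to 1937 with oil and from 1088 to 1494 with E2, and that of 4 endothelial markers from 32.3 to 46.3 and from 47.2 to 51.1. For 6 pituitary and pars tuberalis markers it ran from 1369 to 1574 with oil and from 864 to 1043 with E2, and in both groups 2 of the 6 were at 0 in all 3 libraries. None of these 3 lists had a member past the limma threshold in WT. Of 4 oligodendrocyte precursor markers 1 was lower with E2 in both fits, and their sums ran from 111 to 133 with oil and from 93.9 to 116 with E2. Only with ERKO E2 3 left out, 1 of 7 astrocyte markers was lower (sums from 797 to 989 and from 709 to 809). In both fits 1 of 8 neuron markers was lower (sums from 1251 to 1361 and from 1097 to 1265). So were 2 of the 6 arcuate markers, whose sums ran from 3772 to 4616 and from 2693 to 3110. The arcuate markers did not move together. Kiss1, Tac2 and Pomc lay lower with E2 and Agrp and Ghrh higher, each without overlap, while Npy overlapped. Kiss1 ran from 360 to 520 FPKM with oil and from 20.9 to 58.3 with E2. Agrp ran from 165 to 198 and from 255 to 337, and Ghrh from 124 to 131 and from 164 to 188. Pomc stands in both the arcuate and the pituitary list, and 4 of the 6 pituitary markers were tested. Pomc made up most of the pituitary sums, at 1162 to 1418 FPKM with oil and 701 to 909 with E2. The pituitary hormone gene Cga overlapped, at 0 to 307 FPKM with oil and 0 to 294 with E2. The part of all these markers in the channel values was not tested.

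**Figure D3:**
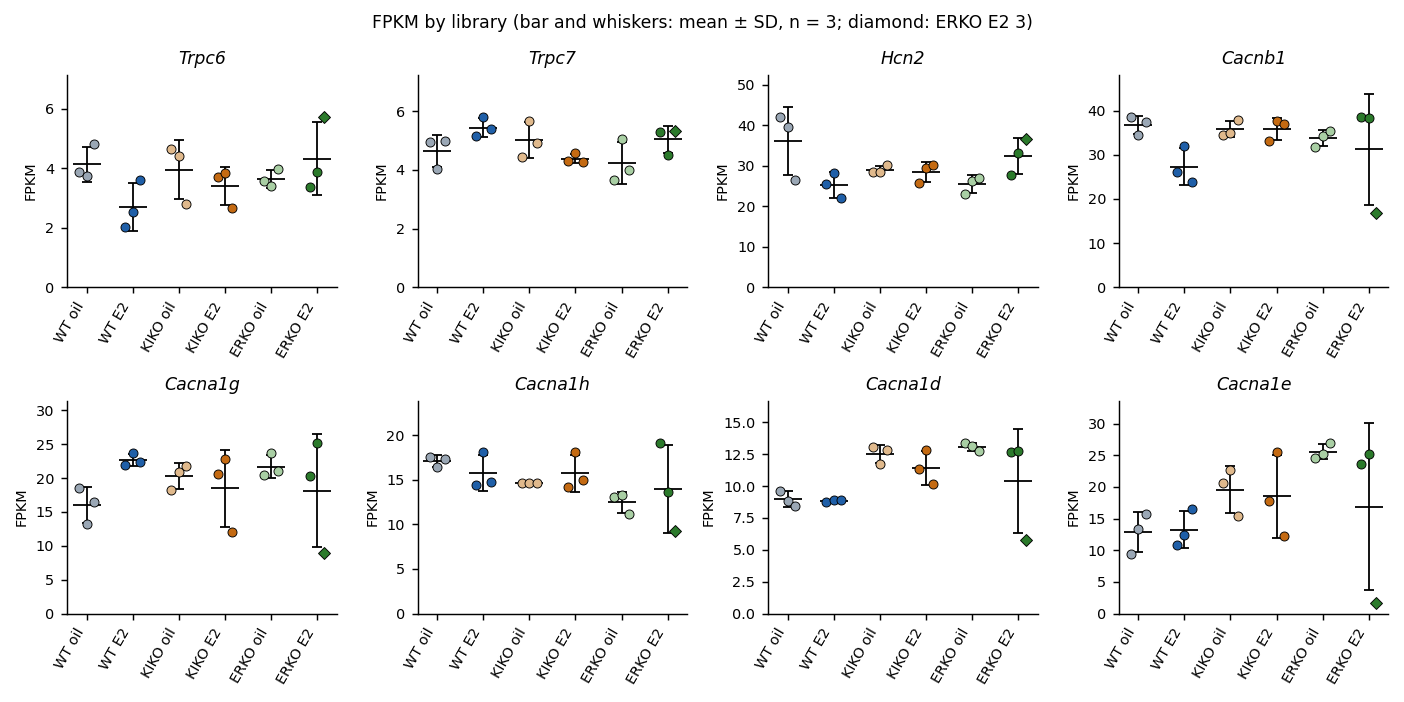
FPKM in each of the 18 libraries for 8 genes, with group means and SD (n = 3) and ERKO E2 3 as a diamond. The 3 WT E2 values of Cacnb1 (23.9 to 31.9 FPKM) lie below the 3 WT oil values (34.5 to 38.5), Cacna1e lies higher in ERKO oil (24.6 to 26.9) than in WT oil (9.43 to 15.7), and Cacna1d lies lower in the 6 WT libraries than in the oil libraries of both mutants.

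Promoter windows of the RefSeq annotation (build GRCm38.p6, 250 bases before to 50 after a start site) were searched for letters of estrogen-related motifs, since the series concerns binding of ERα to DNA. Windows were given for 38 of the 47 genes, 52 windows in all. Those without one were Scn3b, Cacna2d4, Cacna1h, Hcn3, Scn3a, Trpm4, Cacna1a, Cacna1g and Cacng4. On both strands, the full estrogen response element GGTCANNNTGACC was found in 0 of the 52 windows and in 23 of 32851 windows of all genes (0.07%). The letters AGGTCA, which overlap an arm of that element, were found in 5 windows (9.62%, against 16.3% of all), those of Cacng8, Hcn2, Scn1a, Scn8a and Trpm3. The AP-1 letters TGANTCA were found in 1 window (1.92%, against 7.81%), and the Sp1 letters GGGCGG in 22 (42.3%, against 35.7%). A match is a run of letters and no evidence of binding. The 250 bases before the start site are shown for Hcn2, with 2 AGGTCA matches, and Cacnb1, whose E2 values in WT were low and passed in some fits, and for Scn8a, with 1 AGGTCA match, and Cacna1d, both described with the genotypes. For Cacnb1, Scn8a and Cacna1d, which have 2 windows each, the window with a match is shown. Each is written 5′ to 3′ on the strand of its gene, and capitals mark AGGTCA and GGGCGG on either strand.
Hcn2, chr10:79716384-79716633, + strand: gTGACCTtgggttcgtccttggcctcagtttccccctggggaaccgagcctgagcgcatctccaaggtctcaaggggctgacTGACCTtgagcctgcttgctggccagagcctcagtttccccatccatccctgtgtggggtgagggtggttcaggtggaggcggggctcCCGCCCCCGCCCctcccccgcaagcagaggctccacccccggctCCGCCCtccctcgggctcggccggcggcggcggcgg
Cacnb1, chr11:98022628-98022877, - strand: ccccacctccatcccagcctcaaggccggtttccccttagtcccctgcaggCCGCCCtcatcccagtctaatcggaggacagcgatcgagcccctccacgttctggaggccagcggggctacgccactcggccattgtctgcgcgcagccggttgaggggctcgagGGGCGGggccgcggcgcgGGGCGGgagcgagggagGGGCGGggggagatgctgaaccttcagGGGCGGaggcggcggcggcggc
Scn8a, chr15:100936021-100936270, + strand: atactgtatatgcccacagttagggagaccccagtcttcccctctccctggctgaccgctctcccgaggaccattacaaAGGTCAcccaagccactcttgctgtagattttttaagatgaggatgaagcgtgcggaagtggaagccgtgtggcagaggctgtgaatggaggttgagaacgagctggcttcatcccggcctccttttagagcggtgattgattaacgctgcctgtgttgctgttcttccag
Cacna1d, chr14:30353487-30353736, - strand: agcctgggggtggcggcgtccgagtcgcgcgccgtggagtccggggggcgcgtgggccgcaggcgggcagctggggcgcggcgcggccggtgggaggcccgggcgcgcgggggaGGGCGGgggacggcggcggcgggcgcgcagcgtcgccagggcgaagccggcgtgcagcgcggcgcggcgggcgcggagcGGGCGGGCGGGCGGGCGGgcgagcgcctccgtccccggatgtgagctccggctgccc

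In KIKO mice E2 changed 0 of the 47 genes by limma, against 0.00677% of all genes. None had an unadjusted p under 0.05, against 0.948% of all genes. The smallest p belonged to Cacng2, the TARP stargazin, at 0.20 ± 0.14, and next came Trpc7 at -0.15 ± 0.12 and Cacna2d4, an α2δ subunit gene, at -0.20 ± 0.17, each with a limma adjusted p of 1. Cacnb1 was at 34.5, 34.9 and 37.9 FPKM with oil and at 33.0, 37.6 and 37.0 with E2 (0.00 ± 0.22), and these values overlapped. Hcn2 changed by -0.03 ± 0.15, Cacna1g by -0.17 ± 0.28, Cacna1h by 0.09 ± 0.18, Cacna1i by 0.01 ± 0.16 and Cacna1d by -0.13 ± 0.20. Trpc4 changed by 0.06 ± 0.17, Trpc5 by -0.03 ± 0.43, and the L-type pore Cacna1c by -0.00 ± 0.35. Groups did not overlap for 2 of the 47 genes, Cacna2d2 and Cacna2d4, both lower with E2, against 7.41% of all genes. Leaving ERKO E2 3 out of the fit gave 0 genes again, against 0.00677% of all genes. At an unadjusted p under 0.05 there were 0, against 1.59% of all genes. With and without ERKO E2 3, 1 of 3 ventromedial nucleus markers was higher with E2 in KIKO. Their sums ran from 11.1 to 22.4 FPKM with oil and from 17.3 to 32.3 with E2, and their part was not tested.

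In ERKO mice E2 changed 0 of the 47 genes by limma, against 0.0% of all genes. Of the 47, 1 had an unadjusted p under 0.05, against 7.23% of all genes. The smallest p belonged to Hcn2 (0.34 ± 0.15), Cacng3 (0.39 ± 0.19) and Trpm3 (-1.11 ± 0.57), each with an adjusted p of 0.473. The changes without ERKO E2 3 were 0.25 ± 0.16 for Hcn2, 0.21 ± 0.18 for Cacng3 and -0.12 ± 0.30 for Trpm3. Hcn2 was at 22.9, 26.3 and 27.0 FPKM with oil and at 27.8, 33.1 and 36.5 with E2, without overlap, and its highest value was that of ERKO E2 3. Groups did not overlap for 3 genes, against 12.3% of all genes, namely Hcn2, higher, and Cacna2d1 and Cacnb4, lower. The count without ERKO E2 3 was 11 genes, 9 higher and 2 lower, against 21.8% of all genes.

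Many pore genes had a lower mean in ERKO E2 with ERKO E2 3 than without it. With all libraries, the 6 sodium channel pore genes described had negative log2 changes, with a median of -0.33, and the 3 P/Q-, N- and R-type genes had a median of -0.64. These medians were -0.03 and 0.10 without ERKO E2 3. Cacna1e, for instance, was at 23.6, 25.3 and 1.70 FPKM with E2 and changed by -1.14 ± 0.59, and by -0.06 ± 0.25 with ERKO E2 3 out. Cacna1g changed by -0.36 ± 0.28 and by 0.06 ± 0.19 without it, Cacna1c by -0.50 ± 0.35 and 0.12 ± 0.16, Trpc5 by -0.76 ± 0.43 and -0.13 ± 0.32, and Cacna1d by -0.38 ± 0.20 and -0.03 ± 0.09. Cacnb1, at 31.7, 34.2 and 35.4 FPKM with oil and 38.5, 38.3 and 16.7 with E2, changed by -0.20 ± 0.22 and by 0.18 ± 0.10 without it. Cacna1h changed by 0.10 ± 0.18 and 0.35 ± 0.13, Cacna1i by -0.11 ± 0.16 and 0.07 ± 0.14, and Trpc4 by 0.15 ± 0.17 and 0.26 ± 0.18. Over the 47 genes the median change moved from -0.20 to 0.02, against -0.03 and -0.01 over all genes. Without it limma again called 0 of the 47, against 0.00677% of all genes. An unadjusted p under 0.05 belonged to 1 of the 47, against 1.53% of all genes.

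**Figure D4:**
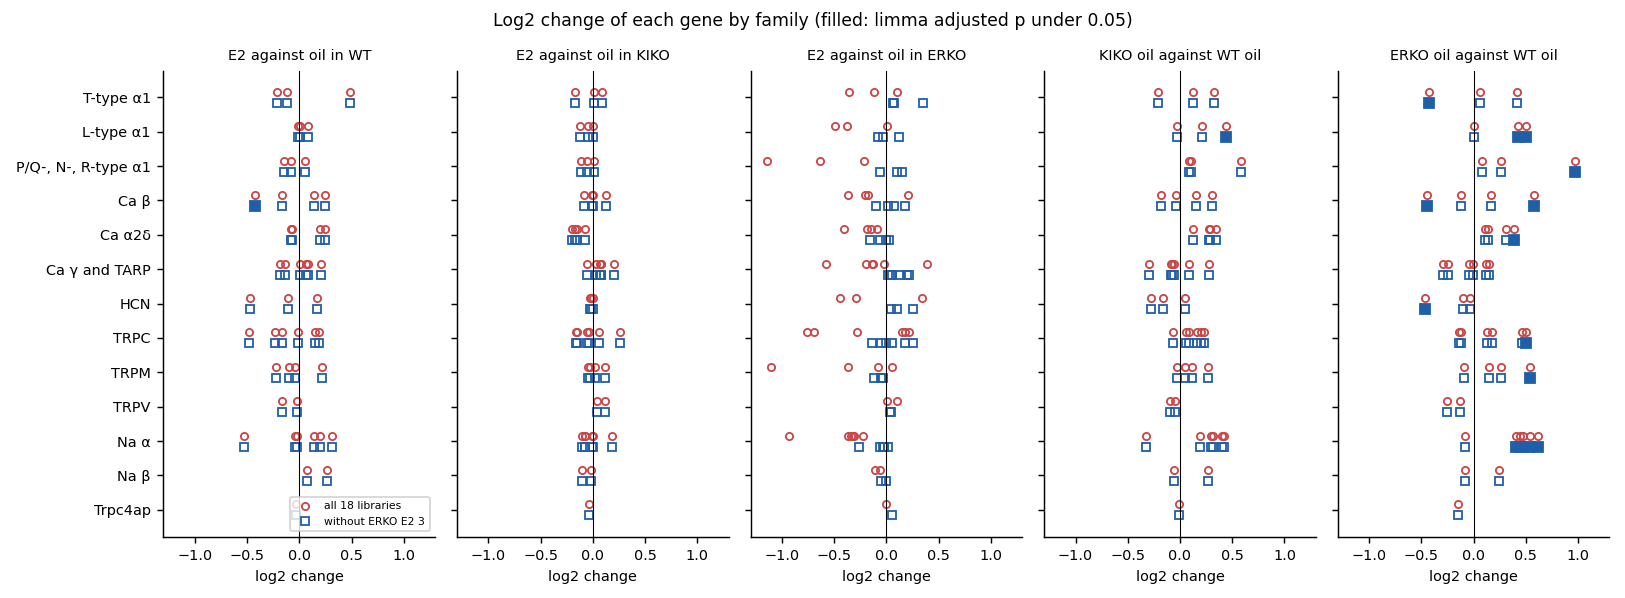
Log2 change of each of the 47 genes by family in 5 comparisons, with all 18 libraries (circles) and without ERKO E2 3 (squares), and with filled symbols past a limma adjusted p of 0.05. Cacnb1 in WT (-0.43) is filled only without that library, the long tails of the ERKO E2 comparison appear only with ERKO E2 3, and 15 genes are filled in ERKO oil against WT oil without it.

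Under E2, limma called 0 of the 47 genes between KIKO and WT, against 0.948% of all genes tested. Of the 47, 2 had an unadjusted p under 0.05, against 8.98% of all genes. The 3 with the smallest p were Cacna1i (0.35 ± 0.16, adjusted p = 0.510), Scn8a (0.36 ± 0.16, adjusted p = 0.531) and Trpc7 (-0.26 ± 0.12, adjusted p = 0.565). Cacnb1 stood at 33.0, 37.6 and 37.0 FPKM in KIKO E2 against 26.2, 31.9 and 23.9 in WT E2, without overlap (0.39 ± 0.22, adjusted p = 0.650). Comparisons with WT E2 share its libraries with the E2 response of WT mice, so these results are not independent of it.

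The E2 response itself was compared between genotypes with the interaction term of the same fit. Limma called 0 of the 47 genes for KIKO minus WT, against 0.135% of all genes, and 0 for ERKO minus WT, against 0.278%. At an unadjusted p under 0.05 were 1 and 6 genes, against 4.91% and 12.7% of all genes. The counts called without ERKO E2 3 were 0 and 0, against 0.284% and 0.426% of all genes. At an unadjusted p under 0.05 they were then 5 and 4, against 9.14% and 13.1% of all genes. The response of Cacnb1 in ERKO minus that in WT was 0.22 ± 0.31 (adjusted p = 0.738), and 0.61 ± 0.14 without ERKO E2 3 (adjusted p = 0.0650). That in KIKO minus that in WT was 0.43 ± 0.31 (adjusted p = 0.999), and 0.43 ± 0.13 in the fit without ERKO E2 3 (adjusted p = 0.256). A difference between genotypes in the E2 response of Cacnb1 was therefore not shown at the threshold.

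For ERKO minus WT the smallest p was that of Hcn2, at 0.81 ± 0.21 (limma adjusted p = 0.156), followed by Scn3b at -0.33 ± 0.13 (adjusted p = 0.328) and Trpc6 at 0.66 ± 0.28 (adjusted p = 0.363). Hcn2 passed without WT oil 3 (1.01 ± 0.17, adjusted p = 0.0165), the library of its lowest WT oil value, whose removal must widen this difference. With ERKO E2 3 left out the differences were 0.72 ± 0.21 for Hcn2, -0.31 ± 0.13 for Scn3b and 0.48 ± 0.26 for Trpc6, none past the threshold. For KIKO minus WT, the smallest p was that of Scn3b at -0.36 ± 0.13 (adjusted p = 0.751), followed by Hcn2 at 0.44 ± 0.21 and Trpc7 at -0.35 ± 0.17 (both adjusted p = 0.999). The T-type pore Cacna1g had differences of -0.65 ± 0.39 for KIKO and -0.84 ± 0.39 for ERKO, the latter -0.42 ± 0.26 without ERKO E2 3. For KIKO minus WT, Cacna1h (0.21 ± 0.25), Cacna1i (0.23 ± 0.22), Cacna1c (-0.08 ± 0.49), Cacna1d (-0.11 ± 0.28), Trpc4 (0.29 ± 0.24) and Trpc5 (-0.18 ± 0.61) did not pass. For ERKO minus WT with all libraries, neither did Cacna1h (0.22 ± 0.25), Cacna1i (0.10 ± 0.22), Cacna1c (-0.58 ± 0.49), Cacna1d (-0.36 ± 0.28), Trpc4 (0.38 ± 0.24) or Trpc5 (-0.91 ± 0.61). The same 6 differences without ERKO E2 3 were 0.47 ± 0.18, 0.29 ± 0.18, 0.04 ± 0.22, -0.02 ± 0.13, 0.49 ± 0.24 and -0.28 ± 0.43, none past the threshold.

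Trpc4, whose channel couples to Gq-linked receptors, was at 3.74, 3.46 and 3.92 FPKM in WT E2 and at 5.87, 6.56 and 4.80 FPKM in ERKO E2 (0.51 ± 0.17, limma adjusted p = 0.213), with no overlap. Trpc6 (0.52 ± 0.20, adjusted p = 0.305) and Cacng4, a TARP gene (-0.45 ± 0.19, adjusted p = 0.358), were next by p. Leaving out ERKO E2 3, Trpc4 stood at 0.62 ± 0.18 (adjusted p = 0.0415), Trpc6 at 0.34 ± 0.20 and Cacng4 at -0.18 ± 0.13. In KIKO E2 against WT E2, Cacna1g stood at -0.33 ± 0.28, Cacna1h at -0.00 ± 0.18, Cacna1c at 0.12 ± 0.35, Hcn2 at 0.17 ± 0.15, Trpc4 at 0.35 ± 0.17 and Trpc5 at 0.05 ± 0.43. In ERKO E2 against WT E2 with all libraries, Cacna1g stood at -0.42 ± 0.28, Cacna1h at -0.21 ± 0.18, Cacna1i at 0.17 ± 0.16, Cacna1c at -0.15 ± 0.35, Hcn2 at 0.35 ± 0.15 and Trpc5 at -0.45 ± 0.43. Without ERKO E2 3, Cacna1g stood at -0.00 ± 0.19, Cacna1h at 0.04 ± 0.13, Cacna1i at 0.36 ± 0.14, Cacna1c at 0.47 ± 0.16, Hcn2 at 0.26 ± 0.16 and Trpc5 at 0.19 ± 0.32, none past the threshold. Values did not overlap for 12 of 47 genes between KIKO E2 and WT E2, against 21.9% of all genes, and for 2 of 47 between ERKO E2 and WT E2, against 11.0%. The last count was 21 of 47 without ERKO E2 3, 19 of them higher in ERKO E2, against 40.6% of all genes.

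Limma called 0 of the 47 genes in ERKO E2 against WT E2, against 1.3% of all genes. An unadjusted p under 0.05 was reached by 7 (14.9%), against 11.5% of all genes. Without ERKO E2 3 limma called 7, against 8.7% of all genes. Cacna1b, Cacna1d, Cacna1e, Cacnb1, Scn1a, Scn8a and Trpc4 were the 7, each higher in ERKO E2 (3.82% of all genes were called higher, and 4.89% lower). Cacna1d changed by 0.48 ± 0.09 (adjusted p = 0.00702) and Cacnb1 by 0.49 ± 0.10 (adjusted p = 0.00998), against 0.14 ± 0.20 and 0.10 ± 0.22 with all libraries. In KIKO E2 against WT E2 the same fit called 2, Cacna1d (0.33 ± 0.08) and Cacnb1 (0.39 ± 0.09), both higher, against 4.03% of all genes. With 2 ERKO E2 libraries left, these calls rest on the spread of the other groups. Under the correction for transcript length and GC content described with the oil groups, 5 of the 7 calls in ERKO E2 were lost, with Cacna1d at 0.27 ± 0.12 (adjusted p = 0.200), and 2 passed, Cacnb1 and Trpc4, against 5.88% of all genes. In KIKO E2 against WT E2 the call of Cacna1d was lost (0.22 ± 0.11, adjusted p = 0.278) and that of Cacnb1 held, against 4.48% of all genes. With the same library out, 1 of the 6 arcuate markers was higher and 2 were lower in ERKO E2, 1 was higher and 1 lower in KIKO E2, and 1 of 4 endothelial markers was lower in ERKO E2. Arcuate sums ran from 2362 to 3178 FPKM in ERKO E2 without ERKO E2 3, from 2157 to 3297 in KIKO E2 and from 2693 to 3110 in WT E2, and endothelial sums from 27.0 to 32.3 in ERKO E2 without it and from 47.2 to 51.1 in WT E2. In KIKO E2 the endothelial sums ran from 31.4 to 38.4 FPKM, with no endothelial marker called. Of 3 ventromedial nucleus markers, 1 was higher in KIKO E2 than in WT E2, with and without ERKO E2 3. Their sums ran from 17.3 to 32.3 FPKM in KIKO E2 and from 6.92 to 15.8 in WT E2. The part of these markers was not tested.

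With oil, none of the 47 genes passed between ERKO and WT mice in the fit of all 18 libraries, and 15 did once ERKO E2 3 was out of the fit. Limma called 0 of the 47 genes with all libraries, with 13 (27.7%) at an unadjusted p under 0.05 against 21.7% of all genes at that level, and 1.43% of all genes past the threshold. Oil values did not overlap for 19 of the 47 genes, against 39.3% of all genes. Without ERKO E2 3, a library that is in neither group, 15 genes passed (31.9%), against 22.5% of all genes. Of these 12 were higher in ERKO (11.9% of all genes higher) and 3 lower (10.5% of all genes lower). Fitting the 6 oil libraries of these groups alone called 9 of the 47. The share of all genes called in that fit is not given here, so no conclusion is drawn from the 9.

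The higher genes included 5 of the 6 sodium channel pores described (Scn1a, Scn2a1, Scn3a, Scn8a and Scn9a) and 2 of the 3 L-type pores (Cacna1c and Cacna1d), with Cacna1e, Cacna2d1, Cacnb4, Trpc1 and Trpm7. Cacna1e, the R-type pore, was at 9.43, 13.4 and 15.7 FPKM in WT oil and at 24.6, 25.2 and 26.9 FPKM in ERKO oil (0.97 ± 0.22, limma adjusted p = 0.00943). Cacna1d, an L-type pore that opens at low voltage, was at 13.4, 13.2 and 12.7 FPKM in ERKO oil against 9.65, 8.87 and 8.43 in WT oil (0.50 ± 0.08, adjusted p = 0.00251). Neither gene's groups overlapped. Scn2a1 was at 14.6, 19.8 and 21.6 FPKM in WT oil and at 26.3, 28.4 and 31.8 in ERKO oil (0.61 ± 0.12, adjusted p = 0.0043), and Scn8a, the pore of the axon initial segment and nodes, changed by 0.44 ± 0.10 (adjusted p = 0.00986).

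The 3 lower genes were Cacna1h, Cacnb3 and Hcn2. Cacna1h was at 17.6, 16.4 and 17.4 FPKM in WT oil and at 13.0, 13.3 and 11.2 FPKM in ERKO oil (-0.43 ± 0.12, limma adjusted p = 0.0195), without overlap. Cacnb3 was at 76.5, 51.8 and 55.4 FPKM in WT oil and at 42.7, 47.0 and 42.5 in ERKO oil (-0.45 ± 0.11, adjusted p = 0.0127), also without overlap. Hcn2, whose lowest WT oil value lay among the ERKO values, changed by -0.46 ± 0.14 (adjusted p = 0.0273). Of the channel genes not called, Cacna1g (0.42 ± 0.17), Cacna1i (0.06 ± 0.12), Trpc4 (0.13 ± 0.16) and Trpc5 (0.47 ± 0.29) had these log2 changes.

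Markers of several cell types differed between the same oil groups in that fit. In ERKO oil 3 of 7 oligodendrocyte, 2 of 4 oligodendrocyte precursor, 2 of 7 astrocyte and 3 of 6 arcuate markers were lower, and of 8 neuron markers 2 were higher and 3 lower. Of 5 microglia, 4 endothelial, 5 tanycyte, 4 pituitary and 2 magnocellular markers tested, 1 of each list was lower. Summed FPKM in WT oil and ERKO oil ran from 1447 to 1937 and from 1196 to 1381 for oligodendrocyte markers, and from 111 to 133 and from 86.6 to 87.9 for their precursors. Astrocyte sums ran from 797 to 989 and from 702 to 770, arcuate sums from 3772 to 4616 and from 2424 to 2478, and neuron sums from 1251 to 1361 and from 1216 to 1292. Pituitary sums ran from 1369 to 1574 and from 620 to 910, and magnocellular sums from 4447 to 7265 and from 1742 to 4292. Most of the pituitary sums was Pomc, at 1162 to 1418 and 596 to 663 FPKM, while Cga overlapped, at 0 to 307 and 0 to 207. Microglia sums ran from 31.4 to 36.2 and from 25.7 to 43.8, endothelial sums from 32.3 to 46.3 and from 27.9 to 33.6, and tanycyte sums from 147 to 203 and from 140 to 166. The 3 ERKO oil libraries were also deeper, at relative depths of 1.13 to 1.315, against 0.811 to 0.995 in WT oil. The part of these markers and of depth in the channel values was not tested.

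The changes between these oil groups followed transcript length and GC content. Over the 47 genes the log2 change had a Spearman correlation of 0.65 with the length of the longest GENCODE vM21 coding transcript and of -0.70 with its GC content, and over 12826 genes with a length the values were 0.45 and -0.57. These are correlations across genes that share the same 6 libraries, given as a description. The 47 genes had a median length of 5510 bases, against 3183 over all genes with a length. Cacna1e has the longest of these transcripts (14921 bases) and Cacng8 the shortest (1897 bases). After a smooth trend on length and GC content was removed from each library, with ERKO E2 3 out of the fit, 2 genes passed instead of 15, against 6.53% of all genes. These were Cacna1e (0.52 ± 0.13, limma adjusted p = 0.0321) and Cacna1h (-0.47 ± 0.11, adjusted p = 0.0196), while Cacna1d stood at 0.21 ± 0.11 (adjusted p = 0.239), Cacnb3 at -0.20 ± 0.08 and Hcn2 at -0.17 ± 0.09.

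Cacnb1, of 3396 bases, kept its side of the threshold under that correction without ERKO E2 3, at -0.31 ± 0.08 for E2 in WT (limma adjusted p = 0.0396, against 3.24% of all genes), 0.34 ± 0.08 for KIKO E2 against WT E2 (adjusted p = 0.0217) and 0.45 ± 0.09 for ERKO E2 against WT E2 (adjusted p = 0.00752). Trpc4 passed there too in ERKO E2 against WT E2 (0.60 ± 0.16, adjusted p = 0.0366). The correction was chosen after the relation had been seen.

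**Figure D5:**
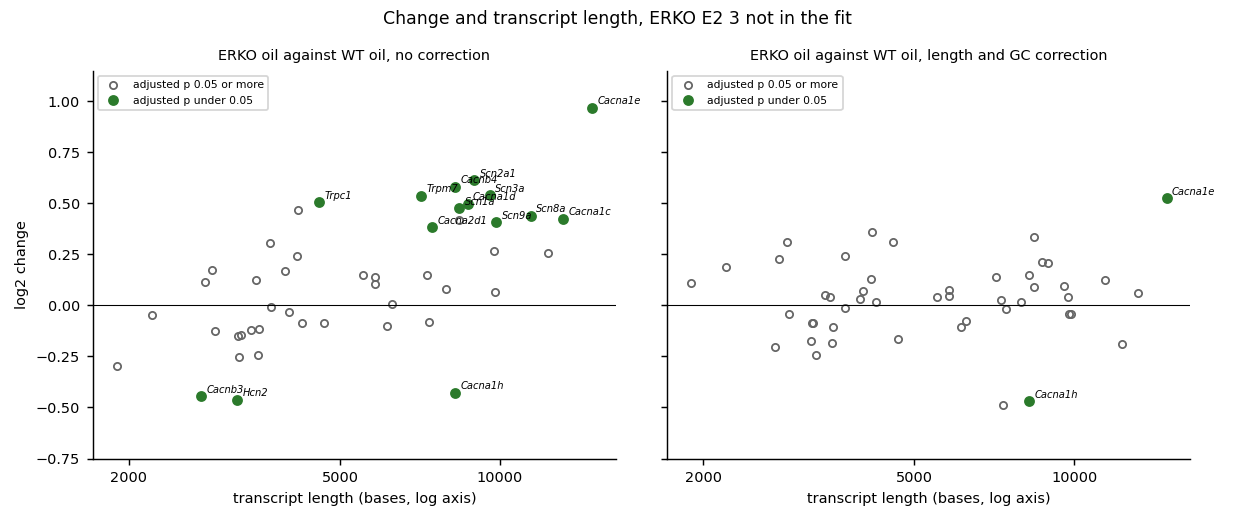
Log2 change of the 47 genes in ERKO oil against WT oil, against transcript length in bases on a log axis, without (left) and with (right) the length and GC correction, ERKO E2 3 not in the fit. The 15 filled genes at left include long pore genes above 0 and short genes such as Cacnb3 (-0.45) below 0, and at right the filled genes are Cacna1e (0.52) and Cacna1h (-0.47).

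Between KIKO and WT mice given oil, none of the 47 genes passed in the fit of all libraries. Limma called 0 of the 47 genes with all libraries, against 0.0135% of all genes. At an unadjusted p under 0.05 were 5 (10.6%), against 10.1% of all genes. Scn3b (0.26 ± 0.09, limma adjusted p = 0.303), Scn8a (0.42 ± 0.16, adjusted p = 0.384) and the α2δ subunit gene Cacna2d3 (0.35 ± 0.15, adjusted p = 0.441) had the smallest p. Without ERKO E2 3, Cacna1d was the 1 gene called, against 1.81% of all genes. It was at 13.0, 11.7 and 12.9 FPKM in KIKO oil (0.44 ± 0.08 from WT oil, adjusted p = 0.0230), all above the WT oil values, and it did not pass after the length and GC correction (0.31 ± 0.11, adjusted p = 0.145). Groups did not overlap for 9 of the 47 genes, against 21.9% of all genes. Hcn2 (-0.28 ± 0.15), Cacna1c (0.21 ± 0.35), Cacna1g (0.33 ± 0.28), Cacna1h (-0.21 ± 0.18) and Cacna1i (0.12 ± 0.16) did not pass, nor did Trpc4 (0.06 ± 0.17) or Trpc5 (0.23 ± 0.43). In KIKO oil, without ERKO E2 3, 1 of 6 arcuate, 1 of 4 oligodendrocyte precursor, 1 of 4 pituitary and 1 of 2 magnocellular markers tested were lower than in WT oil, and 1 of 8 neuron markers was higher. Arcuate sums ran from 2807 to 3585 FPKM in KIKO oil against 3772 to 4616 in WT oil, and precursor sums from 91.4 to 95.9 against 111 to 133. Pituitary sums ran from 683 to 976 against 1369 to 1574, and magnocellular sums from 2632 to 4346 against 4447 to 7265. Most of the pituitary sums was Pomc, at 601 to 770 against 1162 to 1418 FPKM, while Cga overlapped, at 35.7 to 154 against 0 to 307. The part of these markers in the channel values was not tested.

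Summed over families, L-type pore genes stood at 14.9 ± 0.483 FPKM in WT oil and 15.1 ± 0.689 in WT E2 (SD, n = 3). They stood at 19.4 ± 0.806 FPKM in KIKO oil and 21.2 ± 0.271 in ERKO oil, and the ranges of the WT groups lay below those of both mutant oil groups. In KIKO E2 (15.2 to 21.6 FPKM) and ERKO E2 (8.07 to 21.7) the ranges overlapped that of WT E2 (14.4 to 15.8), and without ERKO E2 3 the remaining ERKO E2 sums were 21.2 and 21.7. P/Q-, N- and R-type genes summed to 50.5 ± 5.15 FPKM in WT oil, 59.8 ± 3.93 in KIKO oil and 68.0 ± 2.07 in ERKO oil. The 3 HCN genes described summed to 58.7 ± 8.06 FPKM in WT oil and to 47.4 ± 2.84 in ERKO oil, and the 6 TRPC genes to 24.7 ± 4.19 and 28.2 ± 1.71. Sums were not tested and not corrected for length and GC content. After that correction, Cacna1d passed in neither mutant oil group against WT oil, and Cacna1e passed in ERKO oil but not in KIKO oil. The sums of ERKO E2 had wide SDs, such as 52.9 ± 31.2 FPKM for the P/Q-, N- and R-type genes, whose sums without ERKO E2 3 were 71.0 and 70.7.

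A list of 67 genes that act with these channels was measured beside them, 61 of which were tested. With all libraries only Ank3, the ankyrin that holds sodium channels at the axon initial segment, passed, in ERKO oil against WT oil (0.42 ± 0.09, limma adjusted p = 0.0326), at 34.2 ± 1.02 against 25.3 ± 0.109 FPKM. Of all genes 1.43% passed in that comparison. In the other 8 comparisons limma called 0 of the 61, with 1 to 12 at an unadjusted p under 0.05, against 0.948% to 12.7% of all genes. Without ERKO E2 3, 14 partners were higher and 4 lower in ERKO oil, against 22.5% of all genes. Under the length and GC correction 2 were higher and 2 lower, against 6.53%. Neither Ank3 nor any partner named next, other than Unc80, was among these 4. Nalcn, the sodium leak channel (0.62 ± 0.14), and its partner Unc80 (0.66 ± 0.12) were higher, as were the ryanodine receptors Ryr2 (0.61 ± 0.14) and Ryr3 (0.68 ± 0.13), while Calm3, a calmodulin gene (-0.38 ± 0.09), and Orai1, the store-operated channel (-0.51 ± 0.12), were lower.

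E2 in WT lowered the partner Rrad, a small GTPase that inhibits calcium channels, in the fit without ERKO E2 3 (-0.87 ± 0.15, limma adjusted p = 0.00414), from 42.2 ± 3.57 to 22.5 ± 1.52 FPKM. Fgf14, which binds sodium channel pores, was higher by 0.60 ± 0.15 (adjusted p = 0.0396), at 18.6 ± 2.87 FPKM with E2. Both passed under the length and GC correction too. That correction called 2 partners higher (Fgf14 and Rem2) and 3 lower (Rrad, Calb1 and Ryr3), against 3.24% of all genes. In the fit without ERKO E2 3 and without the correction, Rrad and Fgf14 were the only ones of the 61 called for E2 in WT, against 2.69% of all genes. The same fit called 0 of the 61 for E2 in KIKO and 0 for E2 in ERKO, each against 0.00677% of all genes. At an unadjusted p under 0.05 were 2 and 0, against 1.59% and 1.53% of all genes. For the E2 response of KIKO or ERKO minus that of WT, it also called 0 of the 61. The median change of the 61 in ERKO oil against WT oil was 0.11, against 0.13 for the 47 genes of the channel list and 0.02 over all genes. Under the length and GC correction these medians were -0.01, 0.04 and 0.00.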

How the data were processed

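RNA-seq of the microdissected arcuate nucleus was deposited as 1 gene table a library, in FPKM with confidence bounds and a status. Per the submitters' processing notes, TopHat2 2.0 and Cuffdiff were used with mm10, and the authors' FPKM values were taken as deposited. The annotation is not given in the sources used here. The starts listed in the files lay within 1000 bases of the RefSeq GRCm38.p6 start for 2 of the 47 genes, so no coordinate was taken from the files. The FPKM tables give no total count. Where a confidence bound is symmetric, the squared ratio of FPKM to the SE it implies gives a number of fragments. For 2674 genes this was at least 10 and whole within 0.02 in all 18 libraries, and their fragments per FPKM gave each library's depth relative to the median library.

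Entries sharing a symbol were summed, small RNA genes were left out, and the 14774 genes averaging 0.5 FPKM or more were tested on log2(FPKM + 1). One fit of 18 libraries with 6 group means (12 residual degrees of freedom) was made with limma 3.58.1 in R 4.3.3, with trended and robust variances, two-sided, and p-values were adjusted by Benjamini-Hochberg over all genes tested with a threshold of 0.05. Tables and figures were made with Python 3.11.15, numpy 2.4.6, pandas 2.3.3, scipy 1.17.1 and matplotlib 3.10.9. On simulated data for E2 against oil in WT over 14774 genes, the fit recovered 147 of 200 genes given a log2 change of 1, with 8 false calls. The changed genes had a mean above 1 on log2(FPKM + 1), and the noise was drawn independently for each gene. No library standing apart, no trend on length or GC content and no smaller change was simulated, so recovery under those conditions is not known. Replicate numbers were not taken as pairs, as the labels do not tie them to a batch or animal.

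Of the 51 genes that met the rule, 4 are not reported here and enter no count, sum or figure of the members, though they stayed in the fit of all genes. Members and lists were chosen with earlier results of these data known. Genes named were those past the threshold, the 3 with the smallest p where fewer passed, a fixed panel (Cacna1c, Cacna1d, Cacna1g, Cacna1h, Cacna1i, Hcn2, Trpc4 and Trpc5), the highest and lowest of each family and those beside the level limit. Genes that passed only in other fits, Trpc7 and Cacnb1 in WT, and other single values were named after their values were seen. In all, 31 alternative fits were made. The length and GC correction (lowess, span 0.3, 12826 genes with a length), the replicate block without ERKO E2 3 and the fit with values of failed status missing were added after seeing the data.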

Additional observations from a re-analysis of the deposited data

How the results depend on the processing

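The number of the 47 genes called by limma depended most on ERKO E2 3. Leaving out single libraries gave 0 to 1 genes for members called, E2 against oil in WT, 0 to 1 for KIKO oil against WT oil, 0 to 15 for ERKO oil against WT oil, 0 to 2 for KIKO E2 against WT E2, 0 to 7 for ERKO E2 against WT E2, and 0 to 1 for the E2 response of ERKO minus that of WT. It gave 0 for E2 against oil in KIKO and in ERKO and for the E2 response of KIKO minus that of WT. The highest counts came without ERKO E2 3 (1, 1, 15, 2 and 7 in the order above for the first 5), and without WT oil 3 Hcn2 was the 1 gene called in WT, in ERKO oil against WT oil and in the ERKO response difference. Weighting libraries by quality gave 1 in KIKO oil, 14 in ERKO oil, 3 in KIKO E2 and 4 in ERKO E2, each against WT. Fitting only the groups compared gave 9 in ERKO oil against WT oil. The length and GC correction without ERKO E2 3 gave 1 for E2 in WT, 2 in ERKO oil, 1 in KIKO E2 and 2 in ERKO E2, the last 3 each against WT. With the replicate block 0 genes passed in each of the 9 comparisons, as without it, so that count says nothing of stability. With the block and without ERKO E2 3 the counts were 1, 1, 15, 2 and 5 in the order above and 0 in the other 4. Shares of all genes are not given for the weighted, groups-only and block fits or the fit without WT oil 3. Those counts show only how the number among the 47 moved. Same-numbered oil and E2 libraries of a genotype had correlations of deviations from -0.18 to 0.38. With so few libraries a group, these values cannot tell whether the numbers pair them.

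Of 92 named changes, 1930 alternative fits put 39 past the threshold and 21 turned a change larger than its SE. For E2 in ERKO the turned values were 0.0065 (library weights), 0.061 (without ERKO E2 3) and 0.0047 (length and GC correction without it) for Cacna1g, and 0.081, 0.122 and 0.135 for Cacna1c in the same order. In ERKO E2 against WT E2, Cacna1h turned to 0.047 with weights and 0.041 without ERKO E2 3, and Trpc5 to 0.275, 0.185 and 0.140 in the order used for Cacna1g. For the E2 response of ERKO minus that of WT, Cacna1c turned to 0.083, 0.041 and 0.069 in that order, Cacna1d to 0.054 under the correction without ERKO E2 3, and Trpc5 to 0.035 with weights. With another ERKO E2 library left out in place of ERKO E2 3, the lowest values were -0.64 (Cacna1g) and -0.82 (Cacna1c) for E2 in ERKO, -0.44 (Cacna1h) and -0.81 (Trpc5) for ERKO E2 against WT E2, and -0.91 (Cacna1c) for the ERKO response difference. With the block and without ERKO E2 3, the turned values were 0.016 (Cacna1g) and 0.083 (Cacna1c) for E2 in ERKO, 0.013 (Cacna1h) and 0.216 (Trpc5) for ERKO E2 against WT E2, and 0.0011 (Cacna1c) for the ERKO response difference. The cause of these turns was not tested. Counting limits the weakest genes: 11 of the 47 rested on under 100 implied fragments in at least 1 library, the lowest being Trpc5 with 12 in ERKO E2 3, a counting error of 28.9%. Of 841 implied values for the 47 genes, 278 (33.06%) were whole within 0.02, among them that of Trpc5. The others are approximate, such as the 30.46 of Cacna1s in KIKO oil 1.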
